A study of Mus musculus with 12 samples.

Results

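The heart reads noradrenaline, adrenaline and acetylcholine through a small set of receptors, and 8 genes of this system were followed after loss of Med30, a subunit of the Mediator complex that links transcription factors to RNA polymerase II. They are the receptor genes Adrb1, Adra1a, Adra1b and Chrm2, the adenylyl cyclase genes Adcy5 and Adcy6, the stimulatory G protein gene Gnas and the regulator Rgs2. They were taken by name from the 20775 genes listed in each of the 2 expression tables, and the set was chosen with earlier results of these data known. The embryonic samples were E10.5 hearts, from Med30 f/f embryos with Tnnt-Cre, which deletes Med30 in cardiomyocytes (cKO), and from Cre-negative Med30 f/f littermates (Ctrl). The adult samples came from mice aged 3 months, 4 weeks after tamoxifen, and compared Med30 f/f mice with αMHC-MerCreMer, a tamoxifen-activated Cre of cardiomyocytes (icKO), with Cre-negative Med30 f/f mice (Ctrl) that also received tamoxifen. Each group held 3 samples of strain C57BL/6, the labels called both Ctrl groups wild type, and an effect of Cre itself cannot be told apart from loss of Med30. The labels named heart as the source of the adult samples, while the protocol named collected cardiomyocytes.

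In this system noradrenaline and adrenaline act on the β1-adrenergic receptor, which works through the stimulatory G protein Gs to switch on adenylyl cyclase, and the resulting cyclic AMP raises the rate and force of contraction. Acetylcholine acts on the M2 muscarinic receptor, which works through the inhibitory G protein Gi to restrain cyclase and to open an atrial potassium channel. The α1-adrenergic receptors work through Gq and phospholipase C, a pathway known in cardiomyocytes for growth and survival signals, and RGS2 shortens Gq signals by speeding GTP hydrolysis.

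At 4 weeks, 4 of the 8 genes were called lower in icKO cardiomyocytes, namely Adra1a, Rgs2, Adcy6 and Adra1b, and 1 gene, Gnas, was called higher. Calls required a limma adjusted p under 0.05 and a change of more than 1 in log2 fold, on log2(RPKM + 0.1), where RPKM is reads per kilobase of gene scaled to library depth. Over all 9517 genes tested at 4 weeks, 8.45% were called lower and 28.0% higher. The fold changes of the 8 genes ran from −4.02 in Adra1a to 1.09 in Gnas, with a median of −1.06, beside a median of 0.57 over all genes tested. At E10.5, 6 of the 8 genes were expressed highly enough to be tested, and 1 of them, Adra1b, was called lower in cKO hearts, where 0.542% of 10885 genes were called lower and 0.239% higher. None was called higher by limma, with 1 gene, Adcy6, above 0 at an unadjusted p under 0.05.

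Libraries held between 12 and 20.1 M reads, as estimated from the spacing of the lowest RPKM. Med30 itself had 7.66, 7.45 and 7.66 RPKM in adult Ctrl and 3.81, 3.16 and 1.82 RPKM in icKO samples, and at E10.5 it averaged 11.7 ± 1.42 RPKM in Ctrl against 1.47 ± 0.516 RPKM in cKO hearts (mean ± SD of 3 samples). The 20 most abundant genes took 24.2% to 24.8% of the summed RPKM in adult Ctrl and 10.7% to 12.2% in icKO samples. Median-ratio scaling moved the median over all genes tested (in log2 fold change) from 0.57 to 0.01 at 4 weeks and from −0.13 to −0.01 at E10.5, so each fold change below is also given against the all-gene median. The summed level of 8 cardiomyocyte markers lay between 16700 and 18000 RPKM in adult Ctrl and between 5870 and 7190 RPKM in icKO samples. Of the 8, 7 had a log2 fold change below 0 and 5 were called lower. Nkx2-5 went the other way, from a mean of 23.5 RPKM in Ctrl to 39.1 RPKM in icKO samples. Its log2 fold change was 0.74 (limma adjusted p = 0.000190), and 0.18 with median-ratio scaling (limma adjusted p = 0.174). The summed level of 7 fibroblast markers lay between 4.39 and 7.23 RPKM in adult Ctrl and between 51.6 and 69.4 RPKM in icKO samples, and 3 of the 4 tested, Col1a1, Col1a2 and Postn, averaged above 1 RPKM in icKO samples only, so that the filter kept them because they were high there. Endothelial markers summed to 7.68 to 21.3 RPKM in adult Ctrl and 20.3 to 34.1 RPKM in icKO samples, mural markers to 6.17 to 15.9 and 20.1 to 38.3 RPKM, and macrophage markers to 2.83 to 4.51 and 6.72 to 9.59 RPKM. Of the neural and Schwann markers, only Uchl1 was tested at 4 weeks, with a mean of 2.64 RPKM in Ctrl and 32.1 RPKM in icKO samples. The part of these cells in the results was not tested. In such bulk samples, fewer cells of a type and less RNA per cell cannot be told apart.

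**Figure D1:**
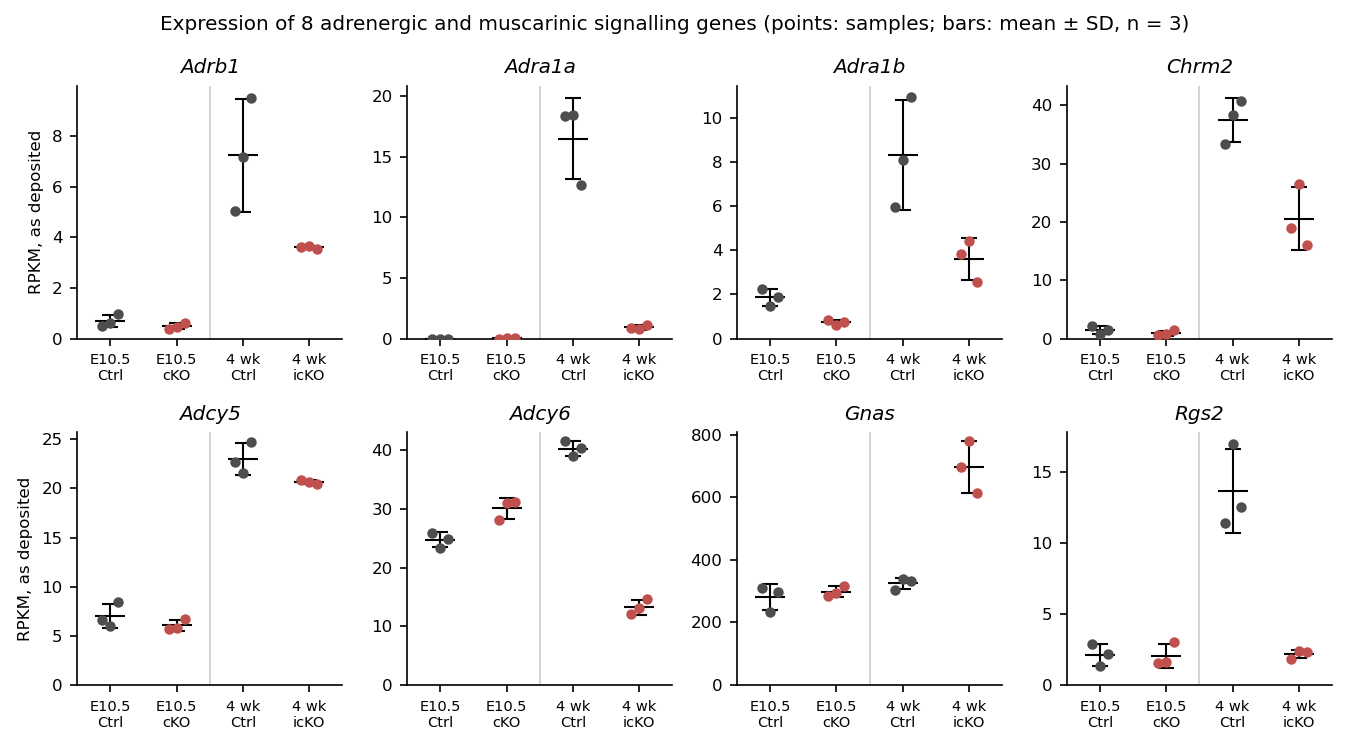
RPKM as deposited (linear axes from 0) of the 8 genes in the 3 samples of each group, with points for samples and bars for the mean ± SD. The red icKO points lie below the grey adult Ctrl points in every gene except Gnas, where they lie above, while at E10.5 the groups separate in Adra1b and Adcy6 only among the 6 genes tested.

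Among the receptors, Adra1a, which encodes the α1A-adrenergic receptor, changed most. Its level was 18.4, 18.5 and 12.6 RPKM in adult Ctrl samples and 0.831, 0.781 and 1.15 RPKM in icKO samples. Every icKO sample lay far below every Ctrl sample, and the mean level fell by 94.4%. On the log2 scale the change was −4.02 (standard error [SE] 0.191, limma adjusted p = 4.16e-07), or −4.59 against the all-gene median, which ranked 26 from the lowest of the 9517 genes tested. It passed the filter through the Ctrl samples, its mean in icKO samples being below 1 RPKM. At E10.5 it was listed at 0 in all Ctrl hearts and at no more than 0.018 RPKM in cKO hearts, below the 0.0349 to 0.0511 RPKM that 3 reads on its transcript correspond to, so its level was not detectable at this depth in either group. Its locus is chromosome 14 of GRCm38, 66635251 to 66771168 on the plus strand.

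Adra1b encodes the α1B-adrenergic receptor, the other main α1 receptor of the mouse heart, and it was the member called lower at both stages. Its level was 5.95, 8.07 and 10.9 RPKM in adult Ctrl and 3.85, 4.44 and 2.54 RPKM in icKO samples. The groups did not overlap, although the Ctrl samples spread widely. The resulting log2 fold change came to −1.18 (SE 0.249, limma adjusted p = 0.00198), or −1.74 against the all-gene median. Without Ctrl replicate 3 it was −0.96 and without icKO replicate 3 it was −0.95, both short of the fold limit with an adjusted p of 0.00495 and 0.00766. Ctrl replicate 3, with the highest Adra1b of its group, had the highest summed endothelial and mural markers of the Ctrl samples, at 21.3 and 15.9 RPKM. Among icKO samples these sums were also highest in replicate 3, at 34.1 and 38.3 RPKM, where Adra1b was lowest. The part of these cells in the level of Adra1b was not tested.

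At E10.5, Adra1b had 2.26, 1.49 and 1.89 RPKM in Ctrl and 0.850, 0.635 and 0.746 RPKM in cKO hearts. All cKO hearts lay below all Ctrl hearts, as was so of 22.6% of the genes tested at E10.5, and their mean dropped by 60.4%. The change in cKO hearts amounted to −1.22 on the log2 scale (SE 0.277, limma adjusted p = 0.0422), or −1.09 against the all-gene median, ranking 50 from the lowest of 10885 genes. Adra1b passed the filter at E10.5 only through Ctrl, since its mean in cKO hearts was 0.744 RPKM. In 5 of the 6 fits with 1 sample left out the gene was no longer called, with an adjusted p of up to 0.152, and a pseudocount of 1 gave a log2 fold change of −0.72. It was kept without cKO replicate 3, with an adjusted p of 0.0409. The cardiomyocyte markers summed to 4210 to 5520 RPKM in Ctrl and 3210 to 3860 RPKM in cKO hearts, macrophage markers to 8.75 to 11.5 and 4.98 to 6.82 RPKM, and mural markers to 14.6 to 17 and 19.6 to 20.6 RPKM. Erythroid markers summed to 1400 RPKM in cKO replicate 1 and to 160 to 490 RPKM in the other 5 hearts, and without that sample the log2 fold change of Adra1b was −1.31 with an adjusted p of 0.0851. The part of these cells in the result was not tested.

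As a share of the 3 α1-adrenergic receptor genes, a quantity that 1 scaling factor per sample cannot move, Adra1a held 71.9%, 67.0% and 51.6% of the summed RPKM in adult Ctrl and 17.4%, 14.4% and 30.3% in icKO samples. The summed level of the 3 genes was 24.5 to 27.6 RPKM in adult Ctrl and 3.80 to 5.42 RPKM in icKO samples. The ratio of Adra1a to Adra1b was 3.09, 2.29 and 1.16 in Ctrl and 0.216, 0.176 and 0.453 in icKO samples, a difference of −2.96 on the log2 scale (exact permutation test, two-sided, p = 0.1, the smallest that 3 samples against 3 can give). This and the 6 other such ratios were chosen with the values of the genes known, and the adjusted p over the 7 ratios was 0.175. Adra1d, the remaining α1 receptor gene, was too low to be tested, with 0.932 to 1.23 RPKM in adult Ctrl and 0.099 to 0.199 RPKM in icKO samples.

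Adrb1, which encodes the main β-adrenergic receptor of cardiomyocytes, had 5.03, 7.16 and 9.52 RPKM in adult Ctrl and 3.62, 3.66 and 3.54 RPKM in icKO samples. The icKO samples were nearly equal and all lay below the Ctrl samples, which spread over a range wider than the difference of the means. This was a log2 fold change of −0.94 (SE 0.201, limma adjusted p = 0.00212), short of the fold limit, and −1.51 against the all-gene median. At E10.5 its mean RPKM was under the filter, with 0.499, 0.629 and 0.967 RPKM in Ctrl and 0.387, 0.454 and 0.611 RPKM in cKO hearts. These groups overlapped, and with no RPKM filter the log2 fold change was −0.43 (95% confidence interval −1.27 to 0.42, limma adjusted p = 0.714). Its locus is chromosome 19 of GRCm38, 56722199 to 56733113 on the plus strand.

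Chrm2, which encodes the M2 muscarinic receptor, was the most abundant receptor gene of the set in the adult samples. It had 33.4, 38.3 and 40.8 RPKM in Ctrl and 19.0, 26.6 and 16.1 RPKM in icKO samples, and the groups did not overlap. This corresponded to a log2 fold change of −0.89 (SE 0.169, limma adjusted p = 0.00103), short of the fold limit, and −1.46 against the all-gene median. At E10.5 it had 2.10, 0.771 and 1.52 RPKM in Ctrl and 0.558, 0.778 and 1.43 RPKM in cKO hearts. The embryonic groups overlapped, with a log2 fold change of −0.61 whose 95% confidence interval ran from −1.56 to 0.35 (limma adjusted p = 0.420). Like Adra1b, Chrm2 passed the filter at E10.5 only through Ctrl, its mean in cKO hearts being 0.920 RPKM. Exons of Chrm2 overlap those of 9330158H04Rik on the other strand, and whether counting used the strand is not given in the sources used here.

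The ratio of the sympathetic to the parasympathetic receptor within a sample, Adrb1 over Chrm2, was 0.150, 0.187 and 0.233 in adult Ctrl and 0.190, 0.138 and 0.220 in icKO samples. The ranges overlapped, with a difference of −0.06 on the log2 scale (exact permutation test, two-sided, p = 0.8). The limma 95% confidence intervals of the log2 fold changes were −1.40 to −0.48 for Adrb1 and −1.27 to −0.51 for Chrm2.

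The calls of Adrb1, Chrm2 and Gnas at 4 weeks depended on how samples were scaled. After median-ratio scaling there were log2 fold changes of −1.49 for Adrb1, −1.45 for Chrm2 and 0.53 for Gnas, so that 6 of the 8 genes were called lower and 0 higher, where 15.9% of all genes were called lower and 11.1% higher. Under that scaling Gnas was above 0 at a limma adjusted p of 0.000850. Quantile normalization gave −1.46, −1.39 and 1.49, while leaving the 20 most abundant genes out of the scaling gave −1.18, −1.13 and 0.85. The directions of all 8 genes at 4 weeks were the same under these 4 scalings. Counted without the fold limit, 6 of the 8 genes were lower and 1 higher at an adjusted p under 0.05 with the RPKM as deposited, beside 18.1% and 60.6% of all genes. All icKO samples lay below all Ctrl samples in 7 of the 8 genes, beside 18.9% of all genes, and above them in 1, beside 62.0%.

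**Figure D2:**
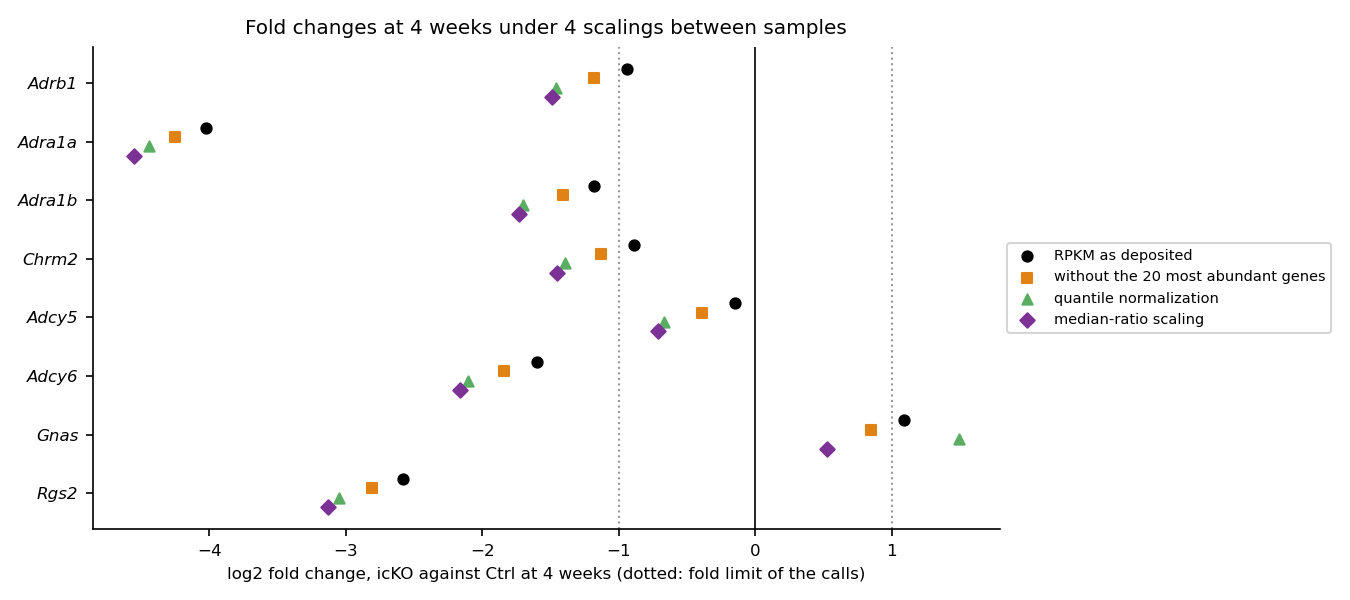
Log2 fold changes of the 8 genes at 4 weeks, icKO against Ctrl, under 4 scalings between samples, with dotted lines at the fold limit of −1 and 1. Adra1a, Adra1b, Adcy6 and Rgs2 lie beyond −1 under every scaling, Adrb1 and Chrm2 lie inside it only with the RPKM as deposited, and Gnas passes 1 as deposited and with quantile normalization.

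Of the 10 other adrenergic and muscarinic receptor genes, 0 reached the mean RPKM of 1 needed for a test at 4 weeks and 1 did at E10.5, Adra2b, at a log2 fold change of 0.39 that was not called (limma adjusted p = 0.479, 0 genes at an unadjusted p under 0.05). Adrb3, the β3-adrenergic receptor gene, was listed at 0 in all adult Ctrl samples and at 0.119 to 0.405 RPKM in icKO samples. Chrm3, a Gq-coupled muscarinic receptor gene, stayed between 0.018 and 0.056 RPKM over the 6 adult samples.

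Gnas encodes the α subunit of Gs, which carries the signal of the β1 receptor to adenylyl cyclase, and it was the most abundant of the 8 genes in every group. It had 305.4, 339.1 and 332.7 RPKM in adult Ctrl and 695.8, 780.4 and 613.6 RPKM in icKO samples. All icKO samples lay above all Ctrl samples, and the mean rose by 113.9%. In log2 terms the change was 1.09 (SE 0.0987, limma adjusted p = 1.01e-05), or 0.52 against the all-gene median, ranking 2349 from the highest of 9517 genes. At E10.5 it had 310.7, 232.6 and 296.9 RPKM in Ctrl and 284.7, 295.0 and 317.3 RPKM in cKO hearts, which overlapped (log2 fold change 0.10, 95% confidence interval −0.26 to 0.47, limma adjusted p = 0.740). The locus on chromosome 2 of GRCm38, from 174284320 to 174346744, has 24 annotated transcripts from several promoters and shares exons with Gm20721 and Nespas on the other strand, and a gene-level RPKM does not separate them.

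Gnai2, which encodes an inhibitory α subunit of Gi, had 31.7, 38.1 and 37.3 RPKM in adult Ctrl and 113.7, 113.9 and 107.7 RPKM in icKO samples. It rose by 1.65 on the log2 scale (limma adjusted p = 6.75e-07), and its paralog Gnai3 by 1.61 (limma adjusted p = 4.72e-06), both also called with median-ratio scaling at 1.08 and 1.07. The ratio of Gnas to Gnai2 within a sample was 9.64, 8.91 and 8.93 in adult Ctrl and 6.12, 6.85 and 5.70 in icKO samples, a difference of −0.56 on the log2 scale with no overlap of samples (exact permutation test, two-sided, p = 0.1). At E10.5 the same ratio was 3.76 to 3.95 in Ctrl and 3.62 to 4.2 in cKO hearts. Of the 17 tested genes among the 23 other G protein subunit genes, 5 were called higher at 4 weeks and 1 lower, or 29.4% and 5.88%, near the 28.0% and 8.45% of all genes, with a median log2 fold change of 0.74. The other genes called higher were Gnb1 at 1.39, Gna13 at 1.34 and Gnao1 at 1.26, of which none was called with median-ratio scaling. Gnb3, a β subunit gene, fell by 2.57 on the log2 scale, and by 3.03 with median-ratio scaling. At E10.5, 0 of 18 tested subunit genes were called by limma, with 1 at an unadjusted p under 0.05.

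Adcy6 and Adcy5 encode the cyclases through which Gs and Gi mainly act in cardiomyocytes, and they parted in the icKO samples. Adcy6 had 41.5, 38.9 and 40.3 RPKM in adult Ctrl and 12.05, 13.13 and 14.62 RPKM in icKO samples. The groups were tight and far apart, with a mean that dropped by 67.0%. In log2 terms the change was −1.60 (SE 0.0912, limma adjusted p = 8.93e-07), or −2.16 against the all-gene median. Adcy5 had 22.7, 21.5 and 24.7 RPKM in adult Ctrl and 20.9, 20.6 and 20.5 RPKM in icKO samples. Its samples did not overlap either, yet the log2 fold change was −0.15 with a 95% confidence interval of −0.34 to 0.03 (limma adjusted p = 0.118), or −0.72 against the all-gene median. With median-ratio scaling Adcy5 was lower by −0.71 at an adjusted p of 7.14e-05, within the fold limit.

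The ratio of Adcy5 to Adcy6 within a sample was 0.547, 0.553 and 0.614 in adult Ctrl and 1.73, 1.57 and 1.40 in icKO samples, so the order of the 2 genes was inverted. The difference was 1.45 on the log2 scale (exact permutation test, two-sided, p = 0.1). At E10.5 the ratio was 0.255, 0.258 and 0.339 in Ctrl and 0.205, 0.186 and 0.214 in cKO hearts, a difference in the opposite direction of −0.48 (exact permutation test, two-sided, p = 0.1). Of the summed RPKM of the 10 adenylyl cyclase genes, Adcy6 made up 54.4% to 56.8% in adult Ctrl and 31.4% to 35.9% in icKO samples, and Adcy5 made up 31.1% to 33.4% and 50.3% to 54.4%. The sum itself was 68.9 to 74.1 RPKM in adult Ctrl and 38.4 to 40.7 RPKM in icKO samples.

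**Figure D3:**
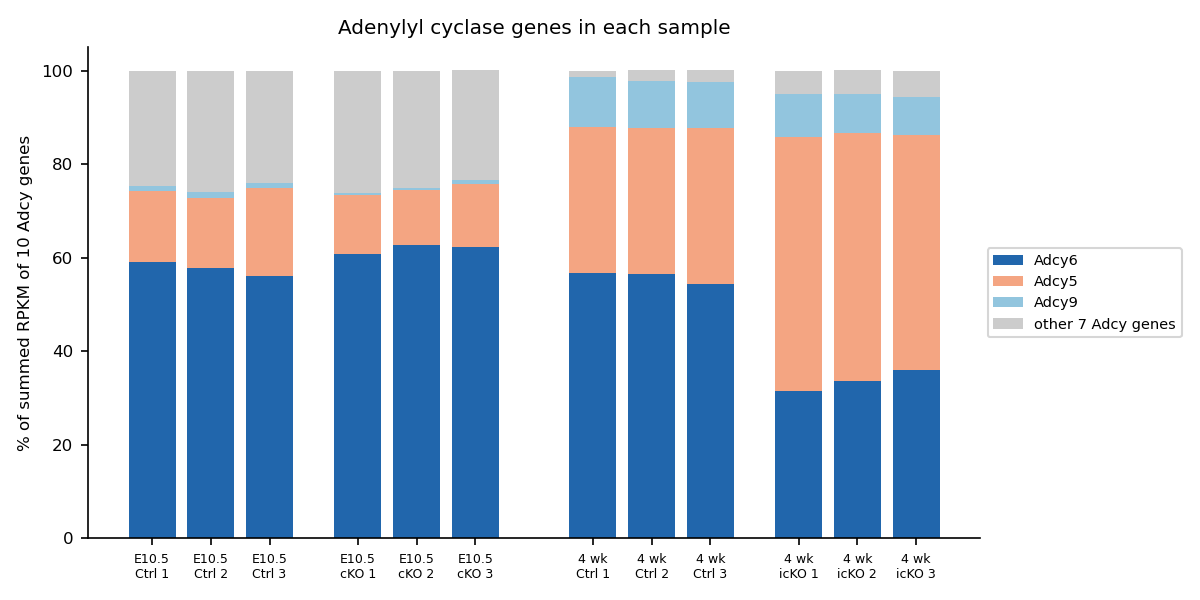
Share of each adenylyl cyclase gene, in % of the summed RPKM of the 10 Adcy genes, in each of the 12 samples, with 1 bar per sample. Adcy6 (dark blue) is the largest share in all embryonic hearts and adult Ctrl samples, and Adcy5 (orange) is the largest in the 3 icKO samples, at 50.3% to 54.4%.

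At E10.5, Adcy6 had 26.0, 23.4 and 24.9 RPKM in Ctrl and 28.1, 31.1 and 31.2 RPKM in cKO hearts. Here all cKO hearts lay above all Ctrl hearts, as in 6.5% of the genes tested, with a log2 fold change of 0.28 that was not called (SE 0.105, limma adjusted p = 0.148). It was 0.41 against the all-gene median, and its adjusted p was 0.0282 with median-ratio scaling. Adcy5 had 6.61, 6.04 and 8.44 RPKM in Ctrl and 5.74, 5.77 and 6.68 RPKM in cKO hearts, which overlapped (log2 fold change −0.20, 95% confidence interval −0.53 to 0.14, limma adjusted p = 0.449). Exons of Adcy6 overlap those of Gm29331 on the other strand. Among the 8 other cyclase genes, Adcy9 was the one tested at 4 weeks and fell by 1.08 on the log2 scale (limma adjusted p = 1.40e-05), and 3 were tested at E10.5 with 0 called by limma and 0 at an unadjusted p under 0.05.

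Rgs2, a GTPase-activating protein of Gq that also acts on cyclase, had 11.36, 16.98 and 12.54 RPKM in adult Ctrl and 1.82, 2.38 and 2.35 RPKM in icKO samples. The groups were well apart, with a mean that dropped by 84.0%. The change was −2.58 on the log2 scale (SE 0.169, limma adjusted p = 1.72e-06), or −3.14 against the all-gene median, ranking 164 from the lowest. At E10.5 it had 2.86, 1.31 and 2.18 RPKM in Ctrl and 1.53, 1.62 and 3.01 RPKM in cKO hearts. These samples were intermixed, with a log2 fold change of −0.04 and a 95% confidence interval of −0.78 to 0.70 (limma adjusted p = 0.953), and its sign turned with the scaling. Of the 18 other RGS genes, 3 were tested at 4 weeks and 1 was called lower, beside 8.45% of all genes. It was Rgs6, which fell by 1.10 on the log2 scale (limma adjusted p = 0.000161) and whose product shortens M2 signals to the potassium channel. Rgs5, also on the mural list, had 3.00, 5.49 and 10.9 RPKM in adult Ctrl and 9.22, 9.25 and 23.5 RPKM in icKO samples (log2 fold change 1.14, limma adjusted p = 0.0508). Rgs4 was below the filter at both stages, with 0.205 to 0.540 RPKM in adult Ctrl and 0.281 to 0.849 RPKM in icKO samples. At E10.5, 0 of 6 tested RGS genes were called by limma, with 2 at an unadjusted p under 0.05.

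Promoter sequence was looked up for the 8 genes, since cyclic AMP acts on transcription through the CRE, an element with the letters TGACGTCA whose core TGACG also occurs on its own. RefSeq windows from 250 bases before to 50 bases after a start, on GRCm38.p6, were found for 6 of the 8 genes, 10 windows in all. Adra1a and Adcy6 were not among them. The core on either strand is in capitals.
Rgs2, chr1:144004100-144004399, minus strand: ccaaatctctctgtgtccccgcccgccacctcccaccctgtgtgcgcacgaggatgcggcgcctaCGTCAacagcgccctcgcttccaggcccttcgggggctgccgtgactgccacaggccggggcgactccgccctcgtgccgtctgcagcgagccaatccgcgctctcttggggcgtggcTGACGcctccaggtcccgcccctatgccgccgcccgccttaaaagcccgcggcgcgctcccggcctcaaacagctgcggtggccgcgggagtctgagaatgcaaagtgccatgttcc
Adrb1, chr19:56721867-56722166, plus strand: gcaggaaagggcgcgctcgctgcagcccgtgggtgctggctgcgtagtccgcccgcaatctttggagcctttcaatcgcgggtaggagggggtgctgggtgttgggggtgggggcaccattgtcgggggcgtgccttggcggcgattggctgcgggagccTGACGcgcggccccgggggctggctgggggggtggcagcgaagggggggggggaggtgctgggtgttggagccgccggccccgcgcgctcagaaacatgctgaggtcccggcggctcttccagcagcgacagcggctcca
Adra1b, chr11:43836440-43836739, minus strand: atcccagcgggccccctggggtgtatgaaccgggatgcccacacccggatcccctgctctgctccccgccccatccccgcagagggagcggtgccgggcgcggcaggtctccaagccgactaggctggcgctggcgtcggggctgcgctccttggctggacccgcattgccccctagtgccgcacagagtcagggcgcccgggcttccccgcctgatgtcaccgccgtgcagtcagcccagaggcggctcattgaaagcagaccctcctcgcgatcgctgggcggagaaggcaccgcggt
Adra1b, chr11:43901188-43901487, minus strand: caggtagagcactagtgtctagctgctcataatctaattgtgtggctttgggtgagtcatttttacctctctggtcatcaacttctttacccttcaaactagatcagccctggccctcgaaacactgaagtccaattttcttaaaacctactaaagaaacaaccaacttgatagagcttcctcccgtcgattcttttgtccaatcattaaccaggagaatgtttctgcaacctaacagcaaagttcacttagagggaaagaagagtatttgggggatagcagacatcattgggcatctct
Chrm2, chr6:36387834-36388133, plus strand: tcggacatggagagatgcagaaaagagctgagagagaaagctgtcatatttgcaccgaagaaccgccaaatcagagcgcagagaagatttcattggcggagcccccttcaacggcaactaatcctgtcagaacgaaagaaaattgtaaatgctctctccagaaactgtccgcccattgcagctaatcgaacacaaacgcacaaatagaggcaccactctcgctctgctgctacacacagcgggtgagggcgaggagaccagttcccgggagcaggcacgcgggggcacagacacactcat
The core TGACG stood 185 and 67 bases before the start of Rgs2 and 90 bases before that of Adrb1. It was absent from both windows of Adra1b and from those of Chrm2 and Adcy5, while 3 of the 4 windows of Gnas held it, 2 of which overlap. In all, 5 of the 10 windows held the core, 3 of them from Gnas, beside 20.8% of 32851 windows of all genes. The full TGACGTCA, which contains the core, was in 0 of the 10 windows, beside 1.79% of all. The GC box GGGCGG was in 7 of the 10 windows, beside 35.7% of all windows, the E box CAGCTG in 1, of Rgs2, beside 16.3%, and TATAAA in 3, all of Gnas, beside 13.6%. The GATA letters AGATAA and the MCAT letters CATTCC were in no window, beside 11.2% and 14.7% of all windows. Both strands were searched for each motif, and a match of letters is a description of the window.

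Beyond the 8 genes, 131 further genes of the pathway were listed by role, of which 66 were tested at 4 weeks and 13 were called lower and 13 higher. That was 19.7% for each direction, beside 8.45% of all genes called lower and 28.0% called higher. Of the 66 genes, 3 passed the filter only through Ctrl (Gnb3, Pnmt and Prkd1) and 3 only through icKO samples (Akap12, Gnai1 and Grk4). Their median log2 fold change was 0.20, or −0.36 against the all-gene median, and 42 of the 66 lay below that median. With median-ratio scaling 18 were called lower and 6 higher, where the shares of all genes were 15.9% and 11.1%. At E10.5, 82 were tested and 1 was called lower and 0 higher by limma, with 9 and 5 at an unadjusted p under 0.05. The share called lower was 1.22%, beside 0.542% of all genes.

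**Figure D4:**
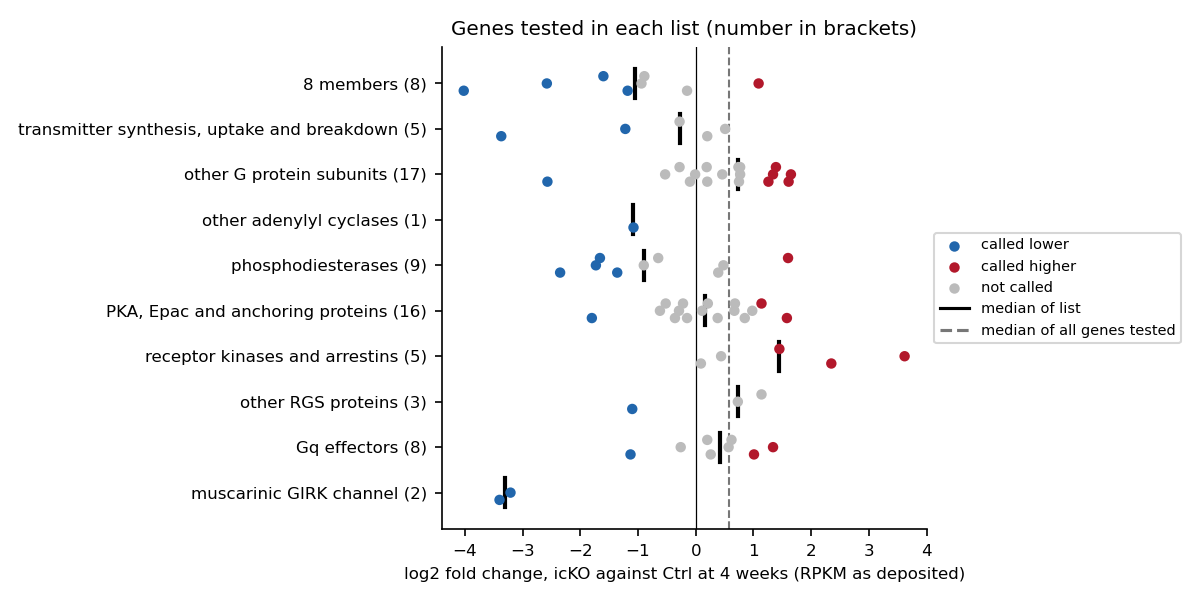
Log2 fold changes at 4 weeks, icKO against Ctrl, of the tested genes of each list, with 1 point per gene, a black bar at the median of the list and a dashed line at 0.57, the median of all genes tested. Both GIRK channel genes and 4 of 9 phosphodiesterase genes were called lower, while 3 of 5 receptor kinase and arrestin genes were called higher. Of these 3, Grk4 passed the filter only through icKO samples. Over all genes tested, 8.45% were called lower and 28.0% higher.

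Downstream of the M2 receptor, both genes of the muscarinic potassium channel fell at 4 weeks. Kcnj3, one subunit, had 17.4, 15.4 and 15.7 RPKM in adult Ctrl and 1.02, 1.87 and 2.36 RPKM in icKO samples, a log2 change of −3.21 (limma adjusted p = 4.16e-06). Kcnj5, the other, had 11.8, 13.2 and 15.7 RPKM and 0.826, 1.40 and 1.43 RPKM, a log2 change of −3.40 (limma adjusted p = 1.15e-06). The log2 fold change of Chrm2 itself, beside these, was −0.89. At E10.5 neither was called, with Kcnj3 at −1.17 (limma adjusted p = 0.0551) and Kcnj5 at −0.30 (limma adjusted p = 0.174). Both were lower at an unadjusted limma p under 0.05, as were 2088 of the 10885 genes tested. Kcnj3 passed the filter at E10.5 only through Ctrl, the group where it was higher.

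Downstream of cyclase, 4 of 9 tested phosphodiesterase genes, whose enzymes break down cyclic nucleotides, were called lower at 4 weeks and 1 higher. That was 44.4% and 11.1%, beside 8.45% and 28.0% of all genes, with a median log2 fold change of −0.90. Pde1c fell by 2.35, Pde7a by 1.73, Pde4a by 1.66 and Pde4d by 1.36 on the log2 scale. Pde4d, whose enzyme is tied to β-adrenergic receptors, had 7.87 to 9.41 RPKM in adult Ctrl and 2.68 to 3.93 RPKM in icKO samples. Pde8a, a cyclic AMP-specific enzyme gene, rose from 2.70 to 3.48 RPKM in Ctrl to 7.69 to 12.05 RPKM in icKO samples, a log2 change of 1.60 (limma adjusted p = 2.74e-05). At E10.5, 0 of 12 were called by limma, with 2 at an unadjusted p under 0.05.

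Of 16 tested genes of protein kinase A, Epac and their anchoring proteins, 2 were called higher at 4 weeks and 1 lower. That was 12.5% and 6.25%, beside 28.0% and 8.45% of all genes, with a median log2 fold change of 0.16. Rapgef4, which encodes the cyclic AMP sensor Epac2, fell by 1.80, while Akap12 had a log2 fold change of 1.58 and Prkacb, a catalytic subunit gene, of 1.14, which median-ratio scaling brought to 0.58 without a call. Prkaca, the more abundant catalytic subunit gene, had 84.3 to 89.3 RPKM in Ctrl and 86.8 to 100.9 RPKM in icKO samples (log2 fold change 0.11, limma adjusted p = 0.228). At E10.5, 0 of 19 were called by limma, with 3 at an unadjusted p under 0.05.

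Of the genes that switch receptors off, 3 of 5 tested were called higher at 4 weeks and 0 lower by limma. The share called higher was 60.0%, beside 28.0% of all genes called higher and 8.45% lower. With 0 of the 5 below 0 at an unadjusted p under 0.05, the median log2 fold change was 1.45. Grk3, a receptor kinase gene, had 1.87, 1.89 and 2.30 RPKM in adult Ctrl and 11.08, 10.43 and 10.53 RPKM in icKO samples, a log2 change of 2.35 (limma adjusted p = 4.69e-07). Grk4 had 0.147 to 0.189 RPKM in Ctrl and 2.54 to 3.62 RPKM in icKO samples, a log2 fold change of 3.62, and passed the filter only through the icKO samples. Grk5 rose by 1.45 (limma adjusted p = 0.000251), and median-ratio scaling brought it to 0.90 without a call. Grk2, the kinase gene best known for β1 receptor desensitization in the heart, had 10.44, 10.52 and 11.25 RPKM in Ctrl and 15.5, 13.3 and 15.1 RPKM in icKO samples, a log2 fold change of 0.44 that was not called and that median-ratio scaling turned to −0.12. At E10.5, 0 of 6 were called by limma, with 2 at an unadjusted p under 0.05.

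Of 8 tested Gq effector genes, 2 were called higher at 4 weeks and 1 lower, with a median log2 fold change of 0.41. These shares of 25.0% and 12.5% were near the 28.0% and 8.45% of all genes. Itpr2, an IP3 receptor gene, fell by 1.13 (limma adjusted p = 0.00642), and the protein kinase C genes Prkca and Prkcd had log2 fold changes of 1.34 and 1.01, neither called with median-ratio scaling. At E10.5, 0 of 9 were called by limma, with 1 at an unadjusted p under 0.05.

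Of 14 genes of transmitter synthesis, uptake and breakdown, 5 were tested at 4 weeks, with 2 called lower. Pnmt, whose enzyme turns noradrenaline into adrenaline, had 2.75, 3.13 and 4.29 RPKM in adult Ctrl and 0.116, 0.294 and 0.328 RPKM in icKO samples, a log2 change of −3.37 (limma adjusted p = 1.13e-05). Pnmt passed the filter only through Ctrl, the group where it was higher. Maob, a monoamine oxidase gene, fell by 1.22 (limma adjusted p = 5.04e-05). Th and Chat, which mark sympathetic and parasympathetic neurons, were listed at 0 in all adult samples. Dbh, whose enzyme makes noradrenaline and which also marks sympathetic neurons, was below the filter, with 0.731, 0.973 and 1.06 RPKM in adult Ctrl, and was listed at 0 in all icKO samples. At E10.5, 1 of 6 tested was called lower, or 16.7%, beside 0.542% of all genes. It was Ddc, whose enzyme makes dopamine, with 8.09, 8.59 and 10.9 RPKM in Ctrl and 1.81, 1.78 and 1.79 RPKM in cKO hearts (log2 fold change −2.28, limma adjusted p = 0.000260).

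The knockout effects at both stages were then compared in a single limma fit of all 12 samples over the 8909 genes tested at both, which included 6 of the 8 genes. The adult effect differed from the embryonic one in Adcy6, Rgs2 and Gnas. For Adcy6 the difference was −1.88 (SE 0.134, limma adjusted p = 1.90e-07), from log2 fold changes of −1.60 at 4 weeks and 0.28 at E10.5. For Rgs2 it was −2.53 (SE 0.401, limma adjusted p = 9.37e-05), from −2.58 and −0.04. At an adjusted p under 0.05 with no limit on size, 9.29% of all genes had a lower and 59.4% a higher adult effect. Adcy6 and Rgs2 also passed a difference of 1 in size, as did 5.03% of all genes in the lower and 34.3% in the higher direction. The median difference over all genes was 0.69, so relative to it the differences were −2.57 for Adcy6 and −3.23 for Rgs2.

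For Gnas the difference was 0.99 (SE 0.187, limma adjusted p = 0.000401), or 0.29 against the all-gene median, and median-ratio scaling brought it to 0.30 with an adjusted p of 0.0859. For Adra1b the difference was 0.04 with a 95% confidence interval of −0.71 to 0.79 (limma adjusted p = 0.917), and for Chrm2 it was −0.28 with an interval of −1.28 to 0.72 (limma adjusted p = 0.596). For Adcy5 the difference was 0.05 (95% confidence interval −0.32 to 0.42, limma adjusted p = 0.815) with the RPKM as deposited and −0.64 (limma adjusted p = 0.00554) with median-ratio scaling. The stages differ in tissue, in Cre line and in the time since deletion, and these cannot be told apart.

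**Figure D5:**
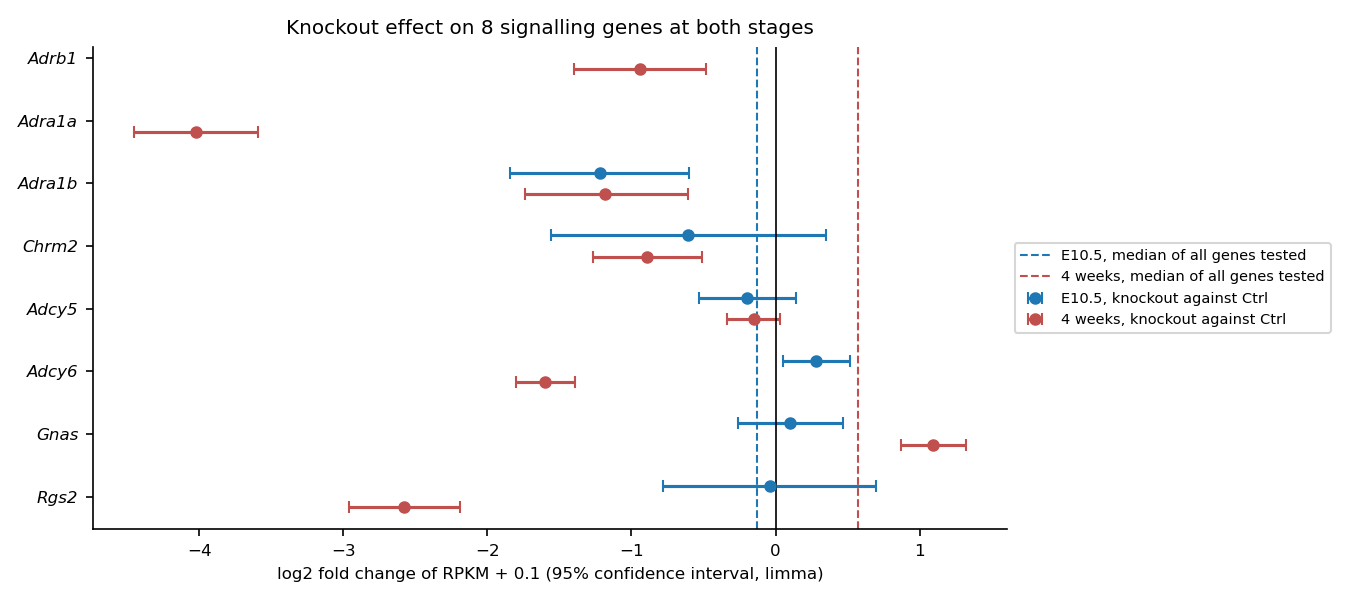
Log2 fold changes on log2(RPKM + 0.1), knockout against Ctrl, with 95% confidence intervals from limma, at E10.5 (blue) and 4 weeks (red), and dashed lines at the median of all genes tested at each stage, −0.13 and 0.57. The intervals of both stages lie apart in Adcy6, Gnas and Rgs2, and overlap in Adra1b, Chrm2 and Adcy5, while Adrb1 and Adra1a were not tested at E10.5.

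Across the 12 samples, the genes whose centred log2 profile came nearest to that of each member were listed among 8903 genes with a mean RPKM above 1 in both tables, by the root mean square difference. The nearest were Dhrs11 and Ogdh to Adrb1 (0.324 and 0.326), Pdk4 and Tcap to Adra1a (0.673 and 0.681), Sdhb and Eci1 to Adra1b (0.344 and 0.347), and Pink1 and Gstk1 to Chrm2 (0.296 and 0.351). They were Atp5d and Jph2 to Adcy5 (0.095 and 0.109), Lifr and Igdcc4 to Adcy6 (0.168 and 0.169), Fam122a and 2510039O18Rik to Gnas (0.089 and 0.090), and Kcnj11 and Rab3a to Rgs2 (0.331 and 0.334). The median difference over the 8903 genes was 0.72 for Gnas and 3.20 for Adra1a, the lowest and highest of the 8. The tables of both stages were normalized separately, and each profile runs over both, so this is a description of likeness over these samples.

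Set side by side, again from tables normalized separately, the Ctrl level of 7 of the 8 genes was higher in adult cardiomyocytes than in E10.5 hearts with no overlap of samples. The share of all genes that separated in this way was not computed, so the count cannot be read as particular to these genes. Chrm2 had means of 1.46 ± 0.667 RPKM at E10.5 and 37.5 ± 3.76 RPKM in the adult, Adrb1 of 0.698 ± 0.242 and 7.24 ± 2.25 RPKM, and Rgs2 of 2.12 ± 0.774 and 13.6 ± 2.96 RPKM (SD, n = 3 each). Rgs2 in icKO samples, at 2.18 ± 0.312 RPKM, lay within the range of embryonic Ctrl hearts, and Adcy6 in icKO samples, at 13.3 ± 1.29 RPKM, lay below all embryonic hearts, at 23.4 to 31.2 RPKM. Gnas had 280.1 ± 41.7 RPKM in embryonic Ctrl and 325.7 ± 17.9 RPKM in adult Ctrl samples, which overlapped in range.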

How the data were processed

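RNA-seq libraries of 12 samples were made from total RNA after ribosomal RNA removal. Per the labels, the submitters' processing notes name cutadapt 2.6, STAR 2.5.3a, HOMER 4.11.1, DESeq2 1.12.4 and the build mm10 (GRCm38). The authors deposited RPKM per gene, without counts, in 1 table per stage, and in both tables the knockout columns are named icKO, also at E10.5 where the labels say cKO. The tables also hold the authors' log2 fold changes, their p-values adjusted to a false discovery rate and a mean RPKM, none of which was used. RPKM do not separate a change of one gene from a change of the rest of the library, so other scalings were run.

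Each stage was fitted with limma 3.58.1 (R 4.3.3; lmFit, eBayes with a trend) on log2(RPKM + 0.1), RPKM as deposited, where the 6 samples averaged above 1 RPKM, with Benjamini-Hochberg adjustment of p-values across every gene in the fit. This scale understates the changes of low genes. The difference between stages was a contrast in a fit of all 12 samples. Ratios within a sample were tested with exact permutation tests. Depth was estimated from values of up to 12 reads, of which 60.9% to 68.7% lay within 0.1 of a whole read, and the floor of 3 reads covers counting error only. The labels do not say that samples came from separate animals, so p-values measure only the spread between these samples. Deviations of same-numbered samples from their group means correlated at −0.07 to 0.153, and those of other pairs at −0.177 to 0.13. With 3 samples per group the deviations must cancel within a group, so these correlations cannot show whether replicate numbers paired the samples. The main fits had no block, and a replicate block was run as an alternative.

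The members and gene lists were chosen with earlier results of these data known. Besides the members and Med30, the genes named are the called genes of each list and stage, up to 4 with the largest fold change in each direction, closely related receptor, G protein, kinase, channel and RGS genes whatever their values, and the 2 nearest profiles of each member. Gnao1, Adra2b, Prkaca, Th, Chat and Dbh were named after their values were seen. So were the marker genes Uchl1, Nkx2-5, Myh7, Ttn, Lyz2, Cd68 and Csf1r and the genes said to pass the filter through 1 group. Some genes of the lists are not reported here. The fit was tested on simulated data. The alternatives were pseudocounts of 1 and 0.01, no filter, a mean RPKM above 5, median-ratio, quantile and top-20 scaling, eBayes without a trend, sample weights, a replicate block and the omission of each sample. Scripts used Python 3.11.15 with numpy 2.4.6, scipy 1.17.1, pandas 2.3.3 and matplotlib 3.10.9.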

Additional observations from a re-analysis of the deposited data

Results flagged for a closer look

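The knockout effect differed between 4 weeks and E10.5, by the limma contrast between stages, in 3 of the 6 genes tested at both. At the same adjusted p under 0.05, 9.29% of all 8909 genes had a lower and 59.4% a higher adult effect, so a difference between stages was common. For Adcy6 the adult minus embryonic log2 fold change was −1.88, and it lay between −2.56 and −1.81 over the alternatives. For Rgs2 it was −2.53, with a range of −3.20 to −2.15. For Gnas it was 0.99, and median-ratio scaling gave 0.30. Its adjusted p ran from 9.59e-06 to 0.0859. Single samples were not checked for distance from their group, since groups held 3 samples each.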

How the results depend on the processing

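Of 194 values of members under alternatives other than leaving out a sample, 170 kept their direction and their side of the threshold, 5 lost the call, 8 gained it and 11 changed sign. At 4 weeks, where 804 genes were lower and 2668 higher, the counts over all genes were 1511 and 1053 with median-ratio scaling, 1341 and 1213 with quantile normalization and 454 and 1687 with a mean RPKM above 5. The count of members called higher was 0 with median-ratio scaling and 0 without the 20 most abundant genes, each with 1 at an unadjusted p under 0.05. Pathway genes called higher numbered 6 with median-ratio scaling, 6 with quantile normalization and 21 with no filter, and those called lower 8 with a mean RPKM above 5 and 20 with no filter. At E10.5, where 59 genes were lower and 26 higher, the counts were 34 and 9 with a mean RPKM above 5, 1 and 0 with no filter (2215 and 674 at an unadjusted p under 0.05), 36 and 12 with a pseudocount of 1, 100 and 43 with sample weights and 36 and 48 without the 20 most abundant genes. Lower genes numbered 38 without a trend and 39 with quantile normalization.

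Adra1b at E10.5 was no longer called with a mean RPKM above 5, where it was not tested, with no filter, with a pseudocount of 1 and with the replicate block, so that 0 members were called lower (0, 1, 1 and 1 at an unadjusted p under 0.05). Its adjusted p was 0.0548 with the block, and ran from 0.00717 to 0.145 over the alternatives. The replicate block changed no other call of a member or of the contrast between stages. Pathway genes called lower at E10.5 numbered 0 with no filter, with 8 at an unadjusted p under 0.05. Members whose contrast between stages passed both the adjusted p and a size of 1 numbered 1 with a mean RPKM above 5, where fewer genes were tested, against 2, and numbered 3 with quantile normalization, with no filter and with sample weights. Where the cause is not named it was not tested.

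Signs turned where values lay near 0. Rgs2 at E10.5 was 0.07 with median-ratio scaling, 0.07 with quantile normalization and 0.12 without the 20 most abundant genes. The contrast between stages turned to −0.64, −0.58 and −0.37 for Adcy5 and to −0.62, −0.59 and −0.36 for Adra1b under the same scalings, to −0.29 for Adra1b with a pseudocount of 1 and to 0.15 for Chrm2 with sample weights.

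Leaving out 1 sample at a time gave 18 to 102 lower and 9 to 36 higher genes at E10.5, with 18 lower without Ctrl replicate 3 and 102 without cKO replicate 3, and 0 to 1 members called lower. At 4 weeks it gave 3 to 5 members called lower and 1 higher. Gnas ran from −0.02 to 0.18 and Rgs2 from −0.34 to 0.20 at E10.5, and the contrast between stages from −0.09 to 0.15 for Adcy5, from −0.17 to 0.27 for Adra1b and from −0.58 to 0.09 for Chrm2. At these depths Adra1a was below 3 reads at E10.5.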
